A study of Mus musculus with 54 samples.

Results

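The cytosolic ribosomal protein genes are the nuclear genes for the proteins of the ribosomes that translate cytoplasmic mRNA. Here they are the protein-coding genes of the deposited tables whose symbol is Rpl or Rps followed by a number, with the usual suffixes, or Rplp0, Rplp1, Rplp2 or Rpsa. The rule found 83 genes of 54356 in the heart table and the same number in the liver table. Of these, 31 encode proteins of the small subunit, 43 of the large subunit and 3 of the P stalk, and 6 are paralogs (Rpl3l, Rpl7l1, Rpl10l, Rpl22l1, Rpl39l and Rps27l). In each tissue 81 of them had a mean of at least 10 normalized counts and were tested. Rpl39l and Rpl10l were below that level in both tissues, and Rpl10l was at 0 in every mouse.

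The mice were C57BL/6 animals with a mitochondrial ribosome that differed in the protein MRPS12, a component of its decoding site. Mrps12+/+ mice carried the normal protein. Homozygous knock-in mice carried a lysine substitution in it, which made mitochondrial translation error-prone in Mrps12ep/ep mice and hyper-accurate in Mrps12ha/ha mice. All groups ate a high-fat diet with 42% of its energy from fat and were 20 weeks old, and each genotype and tissue held 3 mice, each column being the pool of its technical libraries. By the study's methods RNA was from the whole heart or the whole liver. Fewer cells of a type and less RNA per cell thus cannot be told apart, and atrial markers differed widely between the hearts.

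A cytosolic ribosome joins a small subunit, which reads the mRNA, to a large subunit, which forms the peptide bond, and the acidic proteins of the P stalk recruit translation factors. The proteins are needed in near equal numbers. Their mRNAs are abundant, short and start with a run of pyrimidines, the 5′ terminal oligopyrimidine or TOP motif, through which the mTORC1 kinase controls their translation. Some members have a tissue-restricted paralog, of which Rpl3l of heart and skeletal muscle, the partner of Rpl3, is the best known. None of these proteins is part of the mitochondrial ribosome that the mutations alter.

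Values are gene counts scaled by the authors with DESeq2, within each tissue, and called normalized counts. Differences are log2 fold changes of the normalized count plus 1 with their standard error (SE), tested with limma over all genes of a tissue with the Benjamini-Hochberg adjustment. Hearts held 11202961 to 51484404 reads on genes and livers 21238036 to 81518584, and heart Mrps12ha/ha mouse 2 was the shallowest of all. No defining marker of heart or liver was at 0 in its tissue. Nothing in the labels ties a heart to a liver of the same mouse.

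In Mrps12+/+ hearts the 77 members other than paralogs had a median of 7499 normalized counts per kb of transcript. The highest level per kb was that of Rps2, a protein at the mRNA entry channel, with 20956 ± 1231 (SD, n = 3). Rpl23a, beside the peptide exit, followed with 18481 ± 671, Rps29 with 18380 ± 1293, Rplp1 of the P stalk with 17674 ± 1009 and Rpl41, the smallest of the proteins, with 15821 ± 455. Rps2 stood above the other 4 by more than their SDs, whereas Rpl23a, Rps29 and Rplp1 differed from each other by less than the SDs of Rps29 and Rplp1. The median coefficient of variation between the 3 mice was 4.24%. In the liver, which was normalized separately, the median was 10054 per kb with a coefficient of variation of 6.59%, and the order was Rps2 (30418 ± 1851), Rpl41 (25828 ± 1770), Rplp1 (25273 ± 799), Rpl23a (18804 ± 2505) and Rpl7a (18690 ± 1090). There Rpl41 and Rplp1 differed by less than their SDs, as did Rpl23a and Rpl7a.

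At the low end of the order stood Rpl12 with 279 ± 17.4 per kb in the heart, Rpl5 with 422 ± 10.5 and Rps27 with 463 ± 94.8, besides the paralogs Rpl39l with 4.0 ± 3.45 and Rpl10l at 0. The liver order ended with Rpl12 (294 per kb), Rpl5 (534), the muscle paralog Rpl3l (46.8), and Rpl39l and Rpl10l at 0. Many ribosomal protein genes have processed copies elsewhere in the genome or share sequence with an overlapping gene, both called copies here, and 313 genes that share sequence with the transcripts of 71 members held 12.8% of the joint count in hearts and 14.1% in livers. The copies held over 50% for 10 members in hearts and for 9 in livers. Of the joint count in the heart, copies held 93.0% for Rpl12 (most of it at Gm10275), 92.8% for Rpl5 (Gm15500), 95.3% for Rps12 (Rps12-ps3), 94.1% for Rps27 (Rps27rt) and 82.4% for Rpl10 (Rpl10-ps3). For 48 members in the heart copies held under 10%. For Rps20, with 631 per kb in the heart, the protein-coding transcript used is 3706 bases long with a coding part of 360, and a level per kb falls with the length it is divided by. The transcripts used for Rpl5 and Rpl12 were also much longer than their coding parts, 2045 bases for 894 and 1242 for 498. The same held for other members, such as Rps3 with 1908 for 732.

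**Figure D1:**
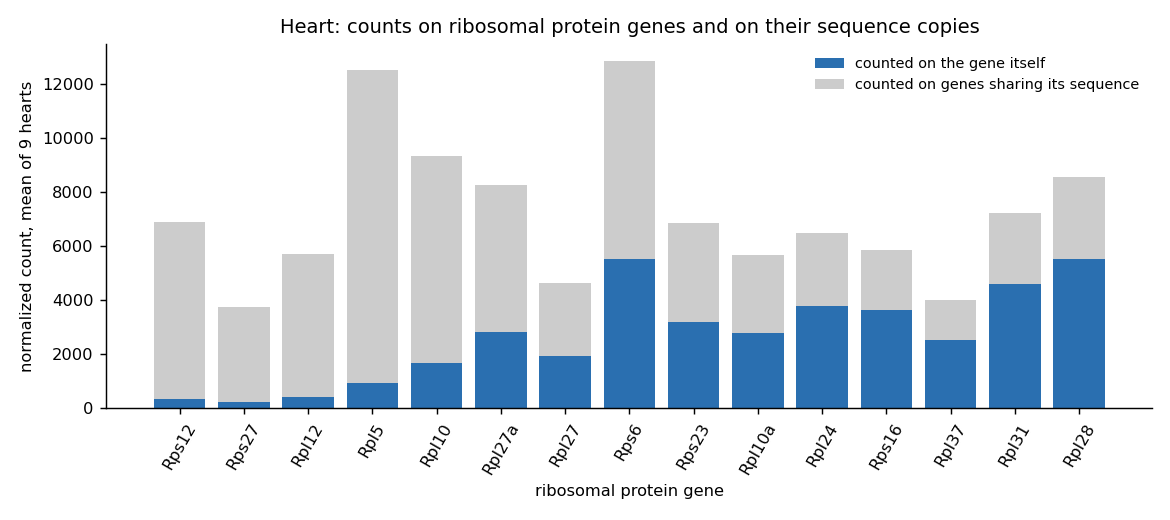
Mean normalized count over 9 hearts (y axis, from 0) on a member itself (blue) and on the genes sharing its sequence (grey, stacked), for 15 members (x axis) in order of the percent on copies. Rps12, Rps27, Rpl12 and Rpl5 have nearly all of their bar in grey, 95.3%, 94.1%, 93.0% and 92.8%.

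The first question was whether the hyper-accurate mitochondrial ribosome came with a different level of the cytosolic ribosomal protein mRNAs. In the heart the members were shifted upward together, but unequally in the 3 mice. The median member stood 0.47 above the Mrps12+/+ mean on the log2 scale in Mrps12ha/ha mouse 1, 0.08 above in mouse 2 and 0.56 above in mouse 3. The single Mrps12+/+ mice lay at -0.02, 0.05 and -0.04, and the Mrps12ep/ep mice at 0.03, -0.02 and -0.10. Mice 1 and 3 thus stood clear of all other hearts, and mouse 2 was just above the highest of them. Of the 81 members, 76 in mouse 1, 45 in mouse 2 and 79 in mouse 3 were above all 3 Mrps12+/+ mice. Of all genes tested, 37.7%, 27.8% and 37.0% were.

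**Figure D2:**
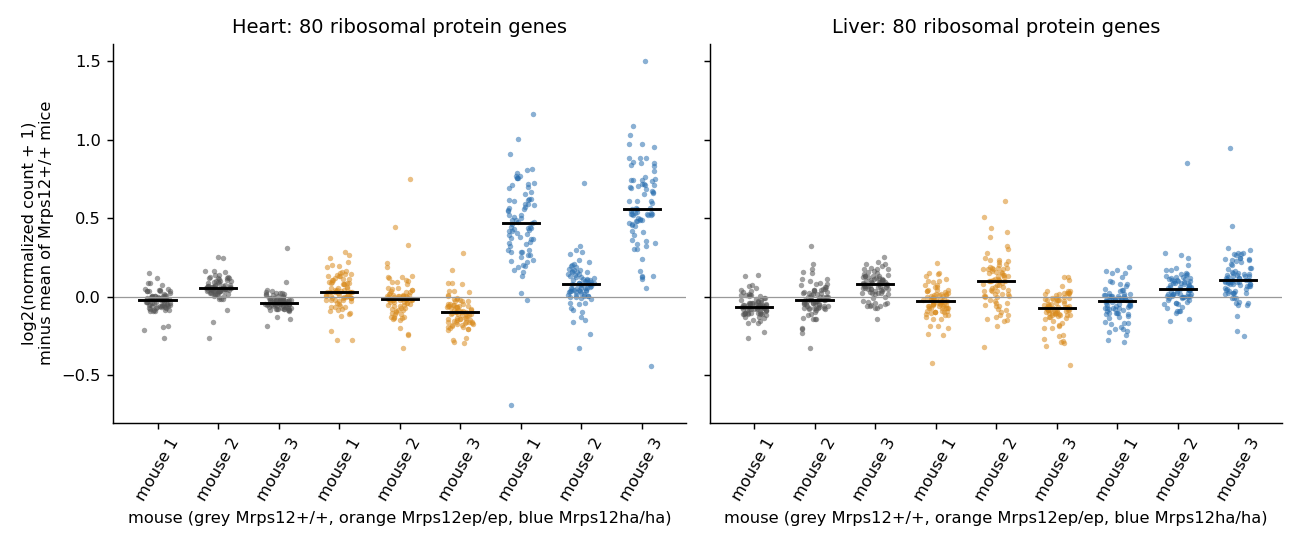
Log2 of each member's normalized count over the Mrps12+/+ mean of its tissue (y axis), by mouse (x axis), for hearts and livers, with a point for each of 80 members, Rpl3l left out, and a line at the median. In the heart the points of Mrps12ha/ha mice 1 and 3 are shifted upward, while those of mouse 2 and of all livers stay near 0.

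As a share of all counts of a mouse, the members made up 1.45%, 1.58% and 1.46% in Mrps12+/+ hearts. The share was 1.48%, 1.63% and 1.41% in Mrps12ep/ep hearts and 2.00%, 1.52% and 2.13% in Mrps12ha/ha hearts, means of 1.497 ± 0.0698%, 1.506 ± 0.11% and 1.88 ± 0.320% (SD, n = 3). Mice 1 and 3 exceeded every other heart, and mouse 2 lay inside the Mrps12+/+ range. The genes of the 78 mitochondrial ribosomal proteins took 0.443 ± 0.0213% of counts in Mrps12+/+ hearts and 0.453 ± 0.0183% in Mrps12ha/ha hearts, within 1 SD of each other. In the liver the cytosolic members made up 1.229%, 1.197% and 1.195% in Mrps12+/+ mice and 1.17%, 1.13% and 1.25% in Mrps12ha/ha mice, and these ranges overlapped.

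In the limma fit of Mrps12ha/ha against Mrps12+/+ hearts, 80 of 81 members had a log2 fold change above 0, with a median of 0.38, against 47.7% of all genes and a median of -0.02. No member passed an adjusted p of 0.05. The background was 0.0311%, 5 genes of 16057, none of them higher in Mrps12ha/ha, and limma-voom, a fit of the read numbers recovered from the values, called 0 members as well. At an unadjusted p under 0.05 limma gave 51 members, where 19.7% of all genes reached it. The groups did not overlap for 44 members that were higher in Mrps12ha/ha, against a background of 11.1%, and for 1 member that was lower, against 10.0%. All 31 small subunit genes lay above 0 with a median of 0.40, as did all 43 large subunit genes with 0.38 and the 3 P stalk genes with 0.51, and 3 of 4 tested paralogs with 0.22. Of the 81 members, 11 exceeded the 90th percentile of all genes, 0.57, and the others lay below it.

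Much of this turned on mouse 2. Without it, 64 of 81 members passed the adjusted threshold, 63 higher and 1 lower, and the median was 0.52. The background was then 27% of all genes, and 12.2% for genes that were higher. Without mouse 1 or mouse 3, or without any of the Mrps12+/+ mice, no member passed, and the median ranged from 0.28 to 0.39. A fit that weighted each heart by its spread called 70 members, of which 69 were higher, on a background of 34.7%, and of 16.1% for genes that were higher.

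**Figure D3:**
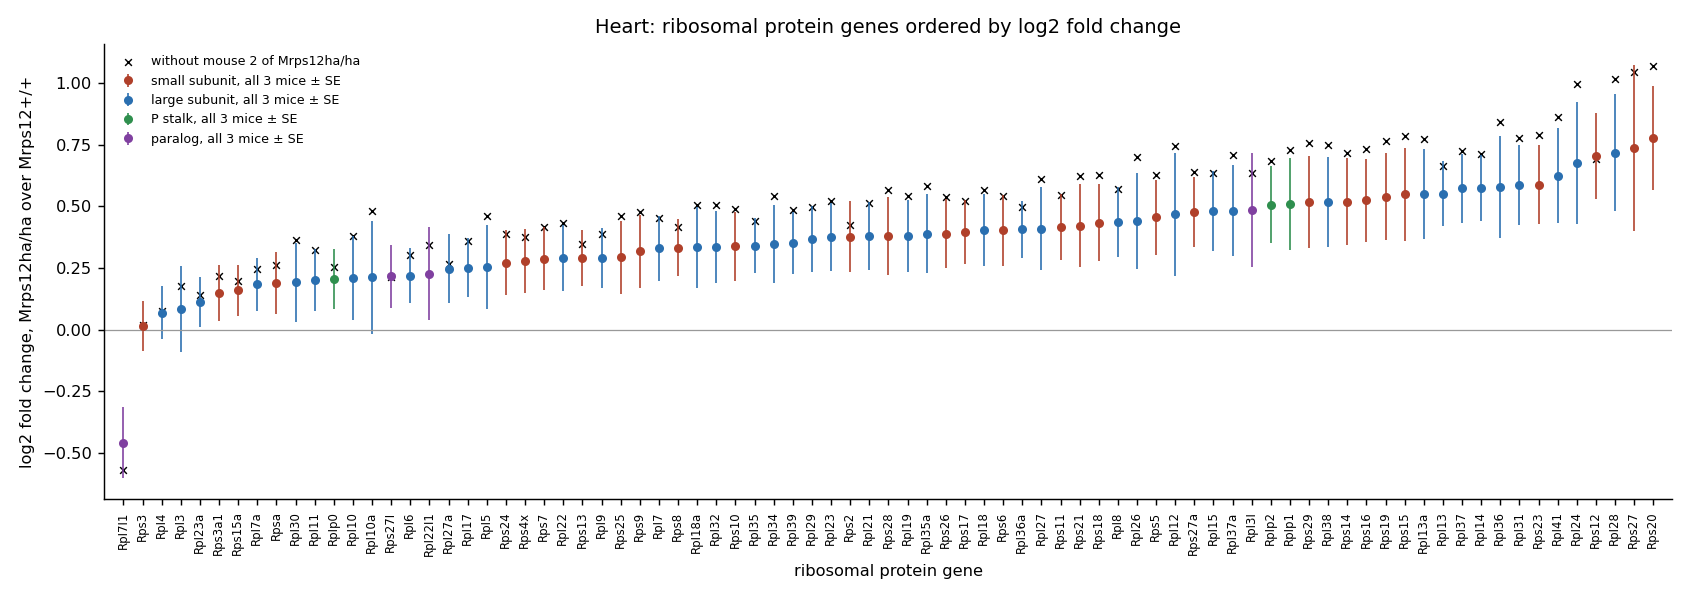
Log2 fold change with SE of each tested member in the heart, Mrps12ha/ha against Mrps12+/+ (n = 3 mice per group, limma), ordered by size and coloured by class, with a cross for the value without Mrps12ha/ha mouse 2. Rps20 lies at the top with 0.78 and Rpl7l1, at -0.46, is the 1 member below 0.

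The member with the largest log2 fold change was Rps20, a protein of the head of the small subunit. It had 2256.2, 2422.6 and 2337.0 normalized counts in Mrps12+/+ hearts. In Mrps12ep/ep hearts it had 2563.7, 2716.3 and 2626.3, and in Mrps12ha/ha hearts 5238.8, 2672.8 and 4596.1. All Mrps12ha/ha hearts were above all Mrps12+/+ hearts, but mouse 2 fell among the Mrps12ep/ep values. The log2 fold change over Mrps12+/+ was 0.78 ± 0.21 (SE; limma adjusted p = 0.191), and it was 1.07 ± 0.09 without mouse 2 (limma adjusted p = 0.00127). With its copy Gm4332 it had 2602, 2899 and 2751 against 5660, 3038 and 5307, a log2 difference of 0.71.

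Rpl28 of the large subunit had 4328.9, 4928.2 and 4229.3 normalized counts in Mrps12+/+ hearts, 5157.1, 4270.4 and 3663.4 in Mrps12ep/ep hearts and 9001.2, 4871.4 and 9143.1 in Mrps12ha/ha hearts. Mouse 2 lay inside the Mrps12+/+ range while the other mice were far above it. The log2 fold change was 0.72 ± 0.24 (limma adjusted p = 0.213), and 0.68 with its copies. Rpl24, which forms a bridge between the subunits, had the same pattern, with 2958.0, 3368.2 and 2952.7 in Mrps12+/+ hearts and 5789.1, 3162.0 and 6565.0 in Mrps12ha/ha hearts (0.68 ± 0.25, limma adjusted p = 0.220). With its copies, which held 41.7% of the joint count, it had 5896, 6154 and 5787 against 8315, 6421 and 8396, and mouse 2 was then above the Mrps12+/+ hearts as well, though the log2 difference was only 0.36.

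Rps12, a protein of the small subunit head, had 274.7, 226.7 and 261.0 in Mrps12+/+ hearts, 295.2, 318.4 and 250.6 in Mrps12ep/ep hearts and 342.4, 419.8 and 491.0 in Mrps12ha/ha hearts, which lay above all others (0.70 ± 0.17, limma adjusted p = 0.191). Most reads of this gene sat on its copies, and the joint count of Rps12 and its copies did overlap: 5456, 6306 and 6008 in Mrps12+/+ hearts against 9182, 6206 and 10090 in Mrps12ha/ha hearts, a log2 difference of 0.49. Rps27, a zinc finger protein of the small subunit, had 152.4, 131.5 and 195.6 normalized counts in Mrps12+/+ hearts and 237.5, 172.1 and 448.1 in Mrps12ha/ha hearts (0.74 ± 0.34, limma adjusted p = 0.258). Jointly with its copies it had 3127, 3569 and 3360 against 4573, 3591 and 5530, a log2 difference of 0.43, the lowest Mrps12ha/ha heart being just above the highest Mrps12+/+ heart.

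Rpl14 of the large subunit, singled out after its values were seen, had 4561.4, 4950.7 and 4839.3 normalized counts in Mrps12+/+ hearts, 4702.4, 5092.1 and 4439.9 in Mrps12ep/ep hearts and 7861.8, 5877.1 and 7819.4 in Mrps12ha/ha hearts. Here mouse 2 too was above every Mrps12+/+ and Mrps12ep/ep heart. The log2 fold change was 0.57 ± 0.13 (limma adjusted p = 0.185). With its copy Rpl14-ps1 it had 5614, 5963 and 6110 in Mrps12+/+ hearts and 7862, 6409 and 7929 in Mrps12ha/ha hearts, a log2 difference of only 0.32. In the P stalk, Rplp1 had 13581, 9256.6 and 15701 in Mrps12ha/ha hearts against 8468.3, 9396.1 and 8593.2 in Mrps12+/+ hearts (0.51 ± 0.19), and Rplp2 had 9698.9, 6414.7 and 8776.5 against 5612.0, 5978.6 and 5658.8 (0.51 ± 0.16). Rplp0, the stalk's base, had a smaller value (0.20 ± 0.12). The limma adjusted p was 0.220, 0.209 and 0.345 in that order.

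At the other end stood Rps3, at the mRNA entry channel, with 8997.1, 9630.6 and 9088.8 normalized counts in Mrps12+/+ hearts and 9109.8, 9307.9 and 9593.3 in Mrps12ha/ha hearts (0.02 ± 0.10, limma adjusted p = 0.937). Rpl4, which lines the peptide exit tunnel, had a log2 fold change of 0.07 ± 0.11, Rpl3, near the peptidyl transferase centre, of 0.09 ± 0.17 and Rpl23a of 0.11 ± 0.10. These groups overlapped for Rps3, Rpl4 and Rpl3. For Rpl23a the lowest Mrps12ha/ha heart, 10748, was just above the highest Mrps12+/+ heart, 10742.

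Rpl7l1, a paralog of Rpl7 that takes part in assembly of the large subunit, went the other way. It had 1336.5, 1705.3 and 1560.9 normalized counts in Mrps12+/+ hearts, 1660.3, 1441.6 and 1618.3 in Mrps12ep/ep hearts and 944.3, 1295.6 and 1123.1 in Mrps12ha/ha hearts. All Mrps12ha/ha values were below all others, mouse 2 being the nearest. The log2 fold change was -0.46 ± 0.14 (limma adjusted p = 0.210), and -0.57 ± 0.13 without mouse 2 (limma adjusted p = 0.0169).

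**Figure D4:**
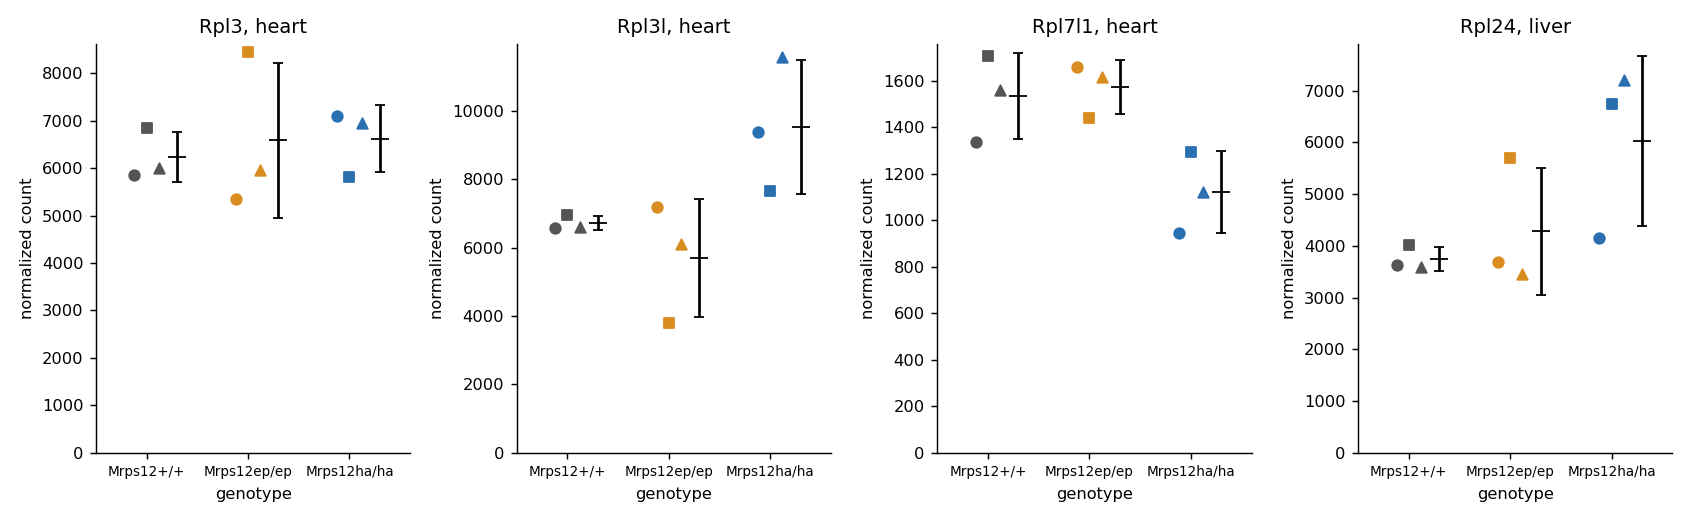
Normalized counts (y axis, from 0) of Rpl3, Rpl3l and Rpl7l1 in the heart and Rpl24 in the liver, by genotype, with circle, square and triangle for mouse 1, 2 and 3 and a bar for the mean ± SD (n = 3). Rpl7l1 is lower in all 3 Mrps12ha/ha hearts, at 944.3 to 1295.6, and Rpl24 is split between the Mrps12ha/ha livers.

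The start sites of the named members are given to set them beside the pyrimidine run by which these mRNAs are known. RefSeq windows on GRCm38.p6 matched 63 of 83 members. The first measure was a run of at least 7 C or T bases including a C, within 10 bases of an annotated start. It was found in 34 of these members, 54.0%, against 22.3% of 27025 genes with a window. A start at C followed by 4 bases that are C or T was found in 13 members, 20.6%, against 3.01% of all genes. For both measures a gene counted when any of its annotated starts qualified, so genes with more starts had more chances. Each printed window is that of the gene's most upstream annotated start. It runs on the transcribed strand, 5′ to 3′, 15 bases before and 15 after that start, and capitals mark its longest run of C and T. The first 4 had the highest log2 fold changes among members with a window, Rpl7l1, Rps3 and Rpl4 the lowest, and Rpl3l is the heart paralog.
Rps27, chr3:90213634-90213663, minus strand: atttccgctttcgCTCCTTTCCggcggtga
Rpl28, chr7:4792950-4792979, plus strand: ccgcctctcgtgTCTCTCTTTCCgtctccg
Rps12, chr10:23787195-23787224, minus strand: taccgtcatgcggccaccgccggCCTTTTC
Rpl24, chr16:55966260-55966289, plus strand: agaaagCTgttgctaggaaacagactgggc
Rpl7l1, chr17:46782642-46782671, minus strand: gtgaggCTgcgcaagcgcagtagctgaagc
Rps3, chr7:99483695-99483724, minus strand: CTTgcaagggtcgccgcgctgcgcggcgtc
Rpl4, chr9:64173372-64173401, plus strand: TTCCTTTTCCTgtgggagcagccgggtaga
Rpl3l, chr17:24727811-24727840, plus strand: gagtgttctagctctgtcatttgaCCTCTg
A run of at least 7 near the start was found for Rps27, Rpl28, Rps12 and Rpl4, and not for Rpl24, Rpl7l1, Rps3 and Rpl3l. So few windows cannot decide whether the run sorts with the log2 fold change. Annotated starts can lie some bases off the start used in a tissue, so a missing run says nothing about the mRNA.

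Other measures differed between these hearts too, not all in step with the members. The sum over 5 erythroid markers (Hba-a1, Hba-a2, Hbb-bs, Hbb-bt and Alas2) was 91865 to 235640 normalized counts in Mrps12+/+ hearts and 134440 to 219870 in Mrps12ep/ep hearts. It was 464390, 199240 and 1412000 in Mrps12ha/ha mice 1, 2 and 3, the same mice being high as for the members. Alas2, the first enzyme of haem synthesis in red cell precursors, had 4859.6, 2355.7 and 17128.5 against at most 2325.6 in Mrps12+/+ hearts. Mrps12ep/ep hearts had up to 2512.1, above Mrps12ha/ha mouse 2. The sum over 6 cardiomyocyte markers was 2996000, 2210800 and 2635600 against 1911100 to 2206600, carried by the myosin gene Myh6 in mice 1 and 3. Its members did not move together. Ryr2, the calcium release channel, had 16285, 44622 and 19113 normalized counts against 47154 to 53594 in Mrps12+/+ hearts. Actc1, the cardiac actin, had 238389, 382697 and 204155 against 250191 to 393928. Tnni3 went the other way, with 221120, 200821 and 215860 against 160462 to 179062, each above every other heart. Tnnt2 had 382720, 381317 and 332355 against 294576 to 346688. The sum over 4 endothelial markers was 38385, 25188 and 31708 against 20903 to 26399 in Mrps12+/+ hearts. In Mrps12ep/ep hearts, where the members were not shifted upward, it was 30308, 25458 and 26610, each above Mrps12ha/ha mouse 2. The sum over 4 atrial markers was 5200.1, 4551.3 and 10279, against 8099.7, 162730 and 117530 in Mrps12+/+ and 1681.1, 332830 and 92947 in Mrps12ep/ep hearts. Mrps12ha/ha hearts were thus low in these markers, as were mouse 1 of Mrps12+/+ and mouse 1 of Mrps12ep/ep. The depth was 17916703, 11202961 and 47814598 reads, against 33825981 to 51484404 in the other hearts, and mouse 3 lay inside that range. None of the markers was at 0, and the part of these in the result was not tested.

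The heart values also varied with transcript length. Most members are short, and among other protein-coding genes with transcripts of up to 500 bases the median log2 ratio to the Mrps12+/+ mean was 0.52, 0.09 and 0.42 in Mrps12ha/ha hearts 1, 2 and 3. For transcripts of over 4000 bases it was -0.14, -0.02 and -0.14. The members were above other genes of their length in mice 1 and 3, but barely so in the shortest class of mouse 1. Their medians were 0.54, 0.07 and 0.74 up to 500 bases. From there to 1000 bases they were 0.45, 0.08 and 0.53, where other genes had 0.24, 0.07 and 0.23. Up to 2000 bases they were 0.37, 0.06 and 0.41, where other genes had 0.03, 0.02 and 0.04. Over the 77 members other than paralogs, the log2 fold change went down with log2 transcript length (Pearson r = -0.30, Spearman rho = -0.37, across genes that share the same libraries). The trend was not particular to the heart, since livers had r = -0.35 and rho = -0.40 for the same genotypes. Its size was smaller there: the mean over Mrps12ha/ha livers had a median of 0.07 for other genes up to 500 bases and -0.06 over 4000. In hearts these medians were 0.30 and -0.11. With every heart re-centred within length classes the median of the members was 0.19, with 73 of 81 above 0. At an unadjusted p under 0.05 limma gave 18 members, where 18.8% of all genes reached it, so little excess was left by that count. No member passed in limma after that step, on a background of 0 genes.

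**Figure D5:**
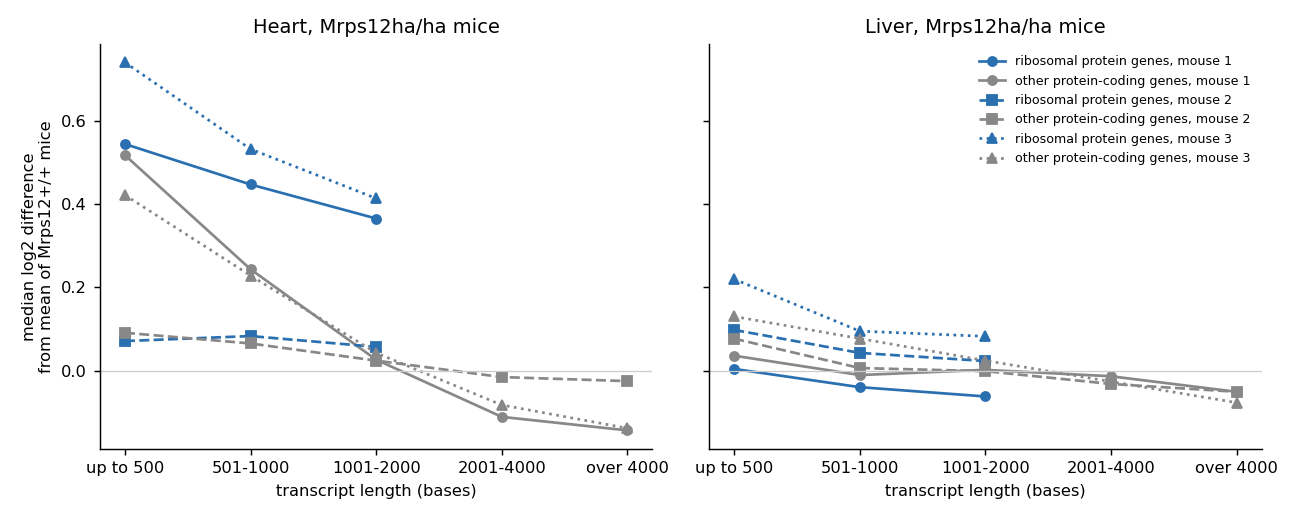
Median log2 ratio to the Mrps12+/+ mean (y axis) by transcript length class in bases (x axis), for members and for other protein-coding genes, in each Mrps12ha/ha heart and liver. In hearts of mice 1 and 3 other genes go from about 0.5 or 0.4 in the shortest class to -0.14 in the longest. The members lie above them in each of their classes up to 2000 bases, but only just in the shortest class of mouse 1 (0.54 against 0.52).

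Ribosomal proteins whose genes carry other names had like values. Fau, a fusion that yields a small subunit protein, had 2896.8, 3435.7 and 3321.2 normalized counts in Mrps12+/+ hearts, 3728.7, 3485.8 and 3065.0 in Mrps12ep/ep hearts and 5500.1, 3566.7 and 6096.8 in Mrps12ha/ha hearts (log2 fold change 0.62 ± 0.19, limma adjusted p = 0.209). All Mrps12ha/ha hearts were above the Mrps12+/+ hearts, but mouse 2 lay in the Mrps12ep/ep range. Rack1, the scaffold on the small subunit head, had a log2 fold change of 0.31 ± 0.15 and Rpl36al, the autosomal paralog of Rpl36a, of 0.25 ± 0.13. None of these 3 genes passed with all mice, and all 3 passed without mouse 2.

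The genes that make ribosomes or share their translational control did not have this upward shift as groups in Mrps12ha/ha hearts. None of the following genes passed with all mice. Of 20 elongation factor and other TOP mRNA genes, 11 had a log2 fold change above 0 (median 0.03), from -0.36 for the histone chaperone gene Nap1l1 to 0.52 for Tpt1. Of 20 genes of the RNA polymerase I machinery, which transcribes ribosomal RNA, 11 lay above 0 (median 0.02), from -0.39 for the initiation factor gene Rrn3 to 0.36 for the shared subunit gene Polr2l. Of 52 ribosome biogenesis factors 14 lay above 0 (median -0.23), from -0.66 for Pno1, a factor of small subunit assembly, to 0.60 for Mdn1, an ATPase of large subunit assembly. Of 22 genes listed under control of TOP mRNA translation, 7 lay above 0 (median -0.22). They ran from -1.09 for the mTORC1 inhibitor gene Ddit4 to 1.5 for the transcription factor gene Mycn. Of the 78 mitochondrial ribosomal protein genes 42 lay above 0 (median 0.06). Without mouse 2, 5 and 3 TOP mRNA genes passed higher and lower, 3 and 2 polymerase I genes and 3 and 15 biogenesis genes. For TOP control the numbers were 2 and 8, and for the mitochondrial proteins 8 and 10. The background of 27% holds both directions together, 4330 genes of 16057, of which 1957, or 12.2% of all genes, were higher.

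Next, the error-prone mutant was set against Mrps12+/+, the same control hearts as above. In Mrps12ep/ep hearts the members lay close to Mrps12+/+, with 19 of 81 above 0, where 47.7% of all genes were, and a median of -0.03. No member passed in limma (background 0.0%, no gene in either direction), none had an unadjusted p under 0.05 where 1.69% of all genes did, and limma-voom called none. The groups did not overlap for 2 members that were higher (background 4.4%) and 3 that were lower (3.64%). The largest log2 fold changes were those of Rps27 (0.38 ± 0.34), Rps12 (0.18 ± 0.17) and Rps20 (0.17 ± 0.21), and the smallest those of Rpl3l (-0.29 ± 0.23), Rpl27a (-0.17 ± 0.14) and Rps29 (-0.14 ± 0.19), all with a limma adjusted p of 1.0.

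Between the mutants, 80 of 81 members were higher in Mrps12ha/ha than in Mrps12ep/ep hearts by the fitted value, where 47.5% of all genes were (median 0.40, all genes -0.02), and none passed in limma (background 0.0249%, and 0.00623% for higher). At an unadjusted p under 0.05 there were 58, where 17.9% of all genes reached it, and limma-voom also called none. The groups did not overlap for 44 members higher in Mrps12ha/ha, on a background of 8.77%, and for 1 that was lower, Rpl7l1, on 7.82%. Rpl3l (0.77 ± 0.23), Rpl28 (0.77 ± 0.24) and Rpl24 (0.71 ± 0.25) had the largest values and Rpl7l1 (-0.50 ± 0.14) the lowest. Without Mrps12ha/ha mouse 2, 66 members passed, 65 of them higher, on a background of 23.2% and of 10.4% for genes that were higher. Weighting each heart by its spread gave 76, of which 75 were higher, on a background of 39.3% and of 18.4% for genes that were higher.

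In the liver the members had no upward shift of the size seen in the heart. For Mrps12ha/ha against Mrps12+/+, 56 of 81 lay above 0 and the median was 0.03, against 47.5% and -0.02 for all genes. The single Mrps12ha/ha livers had medians of -0.03, 0.05 and 0.11, and the Mrps12+/+ livers themselves spread from -0.06 to 0.08. No member passed in limma (background 0.00653%, 1 gene of 15314), 1, Rpl24, had an unadjusted p under 0.05 where 14.1% of all genes did, and limma-voom called none. With its copies Rpl24 overlapped between these livers, with a log2 difference of 0.03. The groups did not overlap for 8 members that were higher (background 10.0%) and 1 that was lower (9.81%). For Mrps12ep/ep against Mrps12+/+ the median was -0.01, no member passed in limma or limma-voom (background 0.00653%) and 1, Rpl3l, had an unadjusted p under 0.05, where 9.74% of genes did. Rpl3l passed the filter on low values only through Mrps12+/+ livers 1 and 2, and with a mean of at least 50 the number was 0. Between the mutants 62 of 81 members were higher in Mrps12ha/ha, where 49.7% of all genes were, with a median of 0.05. No member passed in limma or limma-voom (background 0.00653%) or had an unadjusted p under 0.05, where 8.62% of genes did.

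The member that led in the liver was Rpl24. It had 3630.4, 4008.3 and 3586.4 normalized counts in Mrps12+/+ livers, 3693.1, 5697.5 and 3453.4 in Mrps12ep/ep livers and 4157.9, 6738.0 and 7202.2 in Mrps12ha/ha livers. The Mrps12ha/ha livers were above all Mrps12+/+ livers (0.65 ± 0.23, limma adjusted p = 0.270). The joint count of Rpl24 and its copies, most of it at Gm28037, was 6437, 6921 and 6779 in Mrps12+/+ livers, 6555, 7748 and 6361 in Mrps12ep/ep livers and 6578, 6740 and 7202 in Mrps12ha/ha livers. These ranges overlapped, so that reads of Mrps12ha/ha livers 2 and 3 were assigned to Rpl24 alone where other livers had them in part at the copy. Other liver values of Mrps12ha/ha over Mrps12+/+ were 0.21 ± 0.10 for Rpl36a, 0.21 ± 0.12 for Rps15, -0.13 ± 0.12 for Rpl7l1 and -0.11 ± 0.11 for Rps7. In Mrps12ep/ep livers Rps6, the target of the S6 kinases, stood at 0.21 ± 0.11 and Rps19 at -0.15 ± 0.12, and between the mutants Rpl15 and Rpl13a both stood at -0.06. The limma adjusted p of these lay between 0.379 and 0.919.

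Rpl3l is the member bound to striated muscle. In the heart it had 6590.2, 6970.9 and 6607.8 normalized counts in Mrps12+/+ mice, 7196.8, 3792.0 and 6108.2 in Mrps12ep/ep mice and 9400.7, 7655.9 and 11575 in Mrps12ha/ha mice. Every Mrps12ha/ha heart was above every other heart, mouse 2 included (over Mrps12+/+ 0.49 ± 0.23, limma adjusted p = 0.271). Its partner Rpl3 had 5846.2, 6840.3 and 6014.7, then 5348.3, 8445.1 and 5969.2, then 7097.9, 5816.7 and 6961.9 in the same order, with all groups overlapping.

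The ratio of Rpl3l to Rpl3, which does not depend on scaling between mice, was 1.13, 1.02 and 1.1 in Mrps12+/+ hearts, 1.35, 0.449 and 1.02 in Mrps12ep/ep hearts and 1.32, 1.32 and 1.66 in Mrps12ha/ha hearts. It was higher in 3 of 3 Mrps12ha/ha hearts than in any Mrps12+/+ heart, a difference of 0.40 in mean log2 ratio (exact two-sided permutation test, p = 0.1, the smallest that 3 against 3 allows, adjusted p = 0.75 over 15 ratio tests). For Mrps12ep/ep the difference was -0.34 (exact permutation p = 0.8), and without mouse 2 it was 0.12. That heart, Mrps12ep/ep mouse 2, also had the highest sum over 4 atrial markers, 332830 normalized counts against 1681 and 92947 in the other Mrps12ep/ep hearts, 8099.7 to 162730 in Mrps12+/+ hearts and 4551.3 to 10279 in Mrps12ha/ha hearts. The part of atrial tissue in the ratio was not tested.

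Over the 9 hearts the genes with the pattern most like that of Rpl3l were Gm34302 (Pearson r = 0.976 of log2 values), Coq7 (0.968), Polr2e (0.966), Mrpl33 (0.963) and Uqcrh (0.961), and Rpl3 itself had an r of -0.27 and a Spearman rho of -0.03. These are descriptions over 9 hearts that share genotype groups and libraries. In the liver Rpl3l had 70.0, 121.3 and 1.6 normalized counts in Mrps12+/+ mice, 2.4, 0.0 and 4.4 in Mrps12ep/ep mice and 0.0, 4.1 and 12.5 in Mrps12ha/ha mice. It was high in Mrps12+/+ mice 1 and 2, which also had a sum over 5 skeletal muscle markers of 14545 and 14854, against 20.0 to 118.4 in the other 7 livers. Myh4, the myosin of fast skeletal fibres, had 6180.5 and 3956.6 normalized counts there and at most 8.6 elsewhere. The fitted liver value of Rpl3l over Mrps12+/+, -3.42 ± 1.51 in Mrps12ep/ep (limma adjusted p = 0.511) and -2.79 ± 1.51 in Mrps12ha/ha (adjusted p = 0.439), is taken against a mean that those livers supply.

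For the other paralogs most ratios overlapped between genotypes. Rpl22l1, the paralog of Rpl22, stood at 0.0788 to 0.117 of Rpl22 in all hearts and 0.127 to 0.180 in all livers, and the differences in mean log2 ratio from Mrps12+/+ were -0.06 in Mrps12ha/ha and -0.07 in Mrps12ep/ep hearts (exact permutation p = 0.7 and 0.8). In livers the ratio was 0.138, 0.135 and 0.140 in Mrps12ep/ep mice, below the 0.150, 0.143 and 0.159 of Mrps12+/+ mice, a difference of -0.13 (exact permutation p = 0.1, the smallest possible, adjusted p = 0.75). Rps27l, which p53 is known to induce, had a ratio to Rps27 of 6.31, 7.58 and 4.39 in Mrps12+/+ hearts, 6.27, 3.24 and 4.40 in Mrps12ep/ep hearts and 4.86, 6.34 and 2.30 in Mrps12ha/ha hearts, and these overlapped (exact permutation p = 0.3 and 0.5). That Rps27l exceeded Rps27 depended on the copies: with copies added to both, the mean log2 ratio in Mrps12+/+ mice moved from 2.57 to -1.83 in the heart and from 3.96 to 0.02 in the liver. Rpl39l, known from testis, had at most 5.5 normalized counts in any heart and at most 3.1 in any liver.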

How the data were processed

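Total RNA of 9 hearts and 9 livers was sequenced in 54 libraries, and the 18 columns were used as pooled per mouse. Per the labels and the study's methods, the authors trimmed reads with Trim Galore 0.4.1 and cutadapt 1.18, checked them with FastQC 0.11.8, quantified GENCODE vM21 transcripts (GRCm38.p6) with Salmon 1.1.0, left out mitochondrial transcripts and deposited gene counts normalized with DESeq2 within each tissue. Salmon divides reads between like sequences, which bears on members with copies. Low values were whole multiples of the worth of 1 read (100.0%, within 0.1 steps), which gave the depth and the reads for limma-voom, an alternative chosen after seeing the data.

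Normalized counts were taken as log2 after adding 1 and analysed with limma 3.58.1 (lmFit, eBayes with trend) in R 4.3.3, with all 9 mice of a tissue and genes with a mean of at least 10, and adjusted by Benjamini-Hochberg over all of them at 0.05. Both mutants share the Mrps12+/+ mice, so the comparisons are not independent. Levels per kb used the transcript length of GENCODE. Copies were other genes with a transcript of which at least 50% of the 31-base stretches, taken every 5 bases, occur in a member's protein-coding transcripts. Python 3.11.15, numpy 2.4.6, pandas 2.3.3, scipy 1.17.1 and matplotlib 3.10.9 were used for the rest. The limma fit was checked on simulated data with planted changes and noise independent between genes. These data held no mouse-wide shift and no length trend, so the check does not cover them. Named are the 5 members with the highest and the 5 with the lowest fold change per comparison, the highest and lowest per kb, paralogs, ribosomal proteins under other names and the extremes of companion lists, and values are printed for the main ones. The members and lists were chosen with earlier results of these data known. A further gene of the lists is not reported here.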

Additional observations from a re-analysis of the deposited data

Results flagged for a closer look

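Rps20 was higher in every Mrps12ha/ha heart than in any Mrps12+/+ heart, with a mean 1.78 times that of Mrps12+/+, and lower in every Mrps12ha/ha liver than in any Mrps12+/+ liver, with a mean 0.924 times that of Mrps12+/+. It was picked out because the groups lay apart in opposite directions in the 2 tissues. With its copy Gm4332 added, the livers overlapped, with 4377, 4126 and 4412 normalized counts in Mrps12+/+ mice and 3913, 4254 and 4326 in Mrps12ha/ha mice, a ratio of means of 0.967, while the hearts stayed apart with a ratio of 1.7. Heart and liver were normalized separately, and the difference between them was not tested.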

How the results depend on the processing

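The number of members passing moved only for Mrps12ha/ha hearts. Under array weights 70 passed against Mrps12+/+ and 76 against Mrps12ep/ep. With 1 mouse left out at a time the numbers ranged from 0 to 64 and from 0 to 66, and the highest in both came without Mrps12ha/ha mouse 2. For members passing and for medians, 116 of 120 alternative values each stayed within the spread or count set for them, and 134 of 150 ratios kept their direction. The median of the members moved to 0.19 against Mrps12+/+ and 0.19 against Mrps12ep/ep with hearts re-centred within transcript length classes, chosen after seeing the data. Array weights gave 0.61 against Mrps12ep/ep, and -0.0897 for Mrps12ep/ep against Mrps12+/+. The liver share moved from -0.0238 to 0.0203 percentage points for Mrps12ha/ha against Mrps12+/+ with the 10 most abundant genes out of the total. With copies added, chosen after seeing the data, the log2 ratio of Rps27l to Rps27 changed sign to 0.0085 for Mrps12ep/ep hearts against Mrps12+/+ and to 0.10 for Mrps12ha/ha livers, and a pseudocount of 8 turned that of Rpl22l1 to Rpl22 between the mutant hearts to -0.0015. With 1 mouse left out, ratio differences changed sign within these ranges: Rpl3l to Rpl3 in Mrps12ep/ep hearts -0.67 to 0.12; Rps27l to Rps27 between mutant hearts -0.42 to 0.31 and in Mrps12ha/ha livers -0.20 to 0.0895; Rpl22l1 to Rpl22 -0.22 to 0.0653 in Mrps12ha/ha hearts, -0.22 to 0.0610 in Mrps12ep/ep hearts, -0.12 to 0.13 between them and -0.10 to 0.15 in Mrps12ha/ha livers. The cause of these moves was not tested.

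Correlations of same-numbered mice ranged from -0.231 to 0.578. The highest were 0.578 and 0.409, for mice 1 and mice 2 of Mrps12ep/ep and Mrps12+/+ hearts. Mice of different numbers were not compared, so these values cannot decide whether replicate numbers pair the mice. With the replicate block 0 members passed in each of the 6 comparisons, as in the main fit. The planned fits with edgeR and DESeq2 were not run, and the reads recovered from the normalized values were fitted with limma-voom in their place. With 3 mice a group an exact test cannot go below 0.1.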
